A study of Homo sapiens with 96 samples.

Results

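Lysosomal genes were followed through the neural differentiation of the established human embryonic stem cell line H9, and through exposure of the differentiated cultures to 5 neurotoxic compounds. The set held 39 genes for lysosomal hydrolases, membrane proteins, proton pump subunits and 2 transcription factors, chosen by symbol, and all 39 were found among the 58434 genes of the count table. The study comprised 96 polyadenylated RNA libraries in 12 groups of 8. The neural progenitor cells (NPC) were sampled on day 0, and the 11 remaining groups were co-cultures of neurons and astrocytes, sampled on day 10. The controls were co-cultures with no exposure. Acrylamide, chlorpyrifos, fluoxetine, methyl mercury and valproic acid were each given at concentrations named IC5 and IC20/100. Neither molar doses nor exposure times appear in the labels, and the names IC5 and IC20/100 are used as they stand. The vehicle of acrylamide and valproic acid was medium. Chlorpyrifos, fluoxetine and methyl mercury were dissolved in dimethyl sulfoxide (DMSO), which made up 0.25% of the final medium. Whether the controls held DMSO is not stated, so that vehicle and compound cannot be told apart where a compound given in DMSO is compared with them. The 8 libraries of a group were technical replicates of a single experiment, so that the p-values measure the spread between such libraries and not between independent differentiations.

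The lysosome is the acidic compartment in which cells degrade proteins, lipids and glycans, and a vacuolar proton pump keeps it acidic. TFEB and TFE3 are transcription factors that move to the nucleus when the kinase complex mTORC1 is inactive or lysosomes are disturbed, and they activate many lysosomal genes through E-box elements known as CLEAR sites. Fluoxetine is a cationic amphiphilic drug. Such drugs are weak bases that accumulate in acidic lysosomes and are known to hamper lipid breakdown there. Mutations in many of these genes cause lysosomal storage diseases, several of which affect neurons.

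The CLEAR-type palindrome was looked up in promoters because it links the genes to TFEB and TFE3. RefSeq promoters (GRCh38.p14, 250 bases before to 50 bases after the annotated start) were matched by symbol for 27 of the 39 genes. The 12 others were LAMP2, CTSB, HEXA, ARSA, ASAH1, PSAP, NAGLU, SGSH, MANBA, ATP6V1A, ATP6V1B2 and ATP6V1H. The core CACGTG, which reads the same on both strands, was present in 8 of the 27 (29.6%), against 7.43% of 27305 promoters of the same length. The longer palindrome TCACGTGA, which contains the core, was found in 5 (18.5%) against 1.04% of all promoters. GTCACGTGAC, which contains both shorter forms, was found in 2 (7.41%), MCOLN1 and GAA, against 0.381%. A single RefSeq start was used per symbol, and other starts were not searched. For NPC2 and CTSA that start lies inside the gene as placed by GENCODE 29, whose coordinates are given further below. The 200 bases before the RefSeq start are shown for 5 genes that hold the core and for NPC2, whose window holds none, with each CACGTG in capitals.
MCOLN1 (chr19:7522424-7522623, plus strand): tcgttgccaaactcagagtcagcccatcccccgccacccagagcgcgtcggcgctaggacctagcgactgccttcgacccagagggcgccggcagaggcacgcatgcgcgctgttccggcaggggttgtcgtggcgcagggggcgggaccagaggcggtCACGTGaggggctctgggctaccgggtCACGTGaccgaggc
CTSA (chr20:45891135-45891334, plus strand): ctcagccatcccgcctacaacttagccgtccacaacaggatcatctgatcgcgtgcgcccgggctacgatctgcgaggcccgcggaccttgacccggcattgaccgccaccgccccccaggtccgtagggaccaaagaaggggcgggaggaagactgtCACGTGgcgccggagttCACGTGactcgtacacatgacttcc
LAMP1 (chr13:113297039-113297238, plus strand): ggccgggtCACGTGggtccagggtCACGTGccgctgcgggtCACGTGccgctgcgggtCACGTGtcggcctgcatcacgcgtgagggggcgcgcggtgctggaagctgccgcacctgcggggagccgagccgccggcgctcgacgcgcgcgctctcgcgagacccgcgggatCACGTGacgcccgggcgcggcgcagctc
NEU1 (chr6:31862822-31863021, minus strand): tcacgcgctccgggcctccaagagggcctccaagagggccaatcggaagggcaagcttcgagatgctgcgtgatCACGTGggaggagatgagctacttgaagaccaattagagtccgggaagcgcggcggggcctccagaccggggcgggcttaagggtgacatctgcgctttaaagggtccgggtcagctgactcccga
GAA (chr17:80101381-80101580, plus strand): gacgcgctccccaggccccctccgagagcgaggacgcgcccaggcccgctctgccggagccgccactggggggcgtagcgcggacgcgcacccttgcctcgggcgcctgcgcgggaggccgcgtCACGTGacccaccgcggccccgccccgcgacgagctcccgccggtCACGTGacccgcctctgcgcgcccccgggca
NPC2 (chr14:74493513-74493712, minus strand): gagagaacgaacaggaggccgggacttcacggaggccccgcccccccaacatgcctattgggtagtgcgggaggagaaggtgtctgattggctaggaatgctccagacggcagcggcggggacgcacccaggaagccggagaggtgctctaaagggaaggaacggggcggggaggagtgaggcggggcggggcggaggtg
Of the 7 core-holding genes that could be tested, 5 rose at fluoxetine IC5, namely LAMP1, MCOLN1, CTSA, NEU1 and ATP6V0D1, with a median log2 difference of 0.40 over the 7. GAA and CTSD did not pass the test, and CTSF was too low to be tested. Among 19 genes whose promoter holds no core, 5 rose and the median was 0.09. Both counts are against controls, where 5.47% of all tested genes rose. The share of rises among all genes whose promoter holds the core is not given here. LAMP2, HEXA and ARSA also rose but had no promoter entry, so they are in neither count. CTSA and ATP6V0D1 were called higher in several other exposed groups as well. Whether the core is linked to the rises at fluoxetine IC5 was not tested. Between the fluoxetine concentrations, which hold the vehicle constant, NEU1 was the only core-holding gene called higher at IC5. NPC2, FUCA1, LIPA and TPP1, whose promoters hold no core, were also called higher there. These counts and calls are descriptions of sequence and of expression side by side, not a test of binding. CLEAR sites are known from lysosomal genes, and the set was chosen as lysosomal. The excess over all promoters is therefore not independent of that choice.

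**Figure D1:**
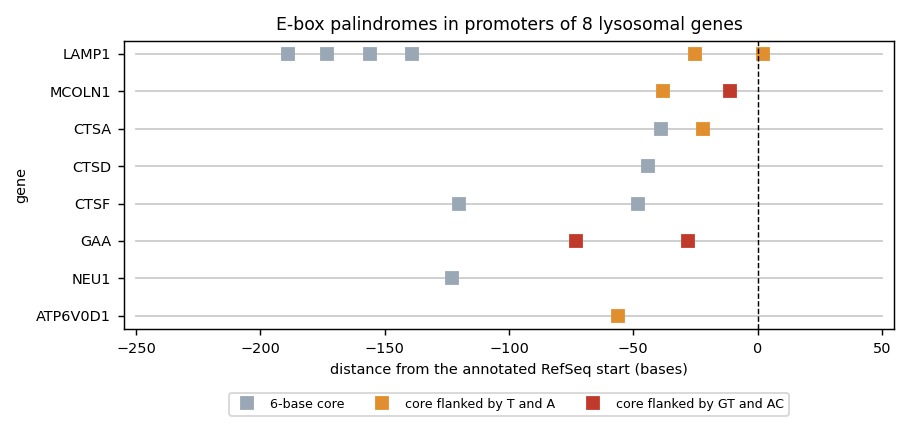
Positions of the CACGTG core (gray), of the core flanked by T and A (orange) and of the core flanked by GT and AC (red) in the 8 promoters that hold it, against the distance in bases from the annotated start. LAMP1 holds the most cores, and the flanked forms lie within 100 bases of the start.

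Depth was 9.49 M to 29.6 M recovered reads per library (mega-reads, median 18.9 M), and the 39 genes took a mean of 0.271% ± 0.010 (SD, n = 8) of reads in controls, 0.285% ± 0.005 at fluoxetine IC5 and 0.237% ± 0.005 in NPC. Levels are gene counts divided by the authors' size factor of each library, called normalized read counts below. The library methyl mercury IC20/100 replicate 8 stood apart from its group in 9 of the genes, and values without it are given beside the results that use that group. Markers of neurons and astrocytes were above NPC in the co-cultures: 8 neuronal markers summed to 84194 to 91083 in controls and 67070 to 73823 in NPC, and 6 astrocyte markers to 1910 to 2586 and 929 to 1421. The sum of 6 progenitor markers was also higher, 92861 to 99567 in controls and 85510 to 89885 in NPC, with MKI67 and NES lower and HES5, PAX6, SOX2 and VIM higher than in NPC.

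Per kilobase of exon, PSAP was the most abundant of the genes in control cultures, at a mean normalized read count of 3701 per kb. PSAP encodes prosaposin, the precursor of the saposins that help sphingolipid hydrolases. ATP6V1A, a proton pump subunit, followed at 483 per kb, and CTSD, which encodes the aspartic protease cathepsin D, at 411 per kb. IDS, encoding iduronate-2-sulfatase, stood at 338 per kb. The length used is that of all annotated exons of a gene together, so the order depends on the annotation. SCARB2, for example, had a control mean of 4923 over 19.3 kb, and ATP6V1A 2480 over 5.13 kb. TFE3 was at 153 per kb and TFEB at 9.06 per kb. The lowest were GPNMB at 1.40 per kb and CTSF, which was listed at 0 in 73 of the 96 libraries and never above 3.91. CTSF was therefore not tested, and GPNMB was tested only among the day 10 groups.

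At fluoxetine IC5 a broad set of these genes was higher than in controls, and none was lower by the test as fitted over all day 10 groups. Against controls, 13 of the 38 tested genes rose and 0 fell at an adjusted p under 0.05 (limma on log2 values, Benjamini-Hochberg over 20136 genes), where 5.47% of all genes rose and 5.94% fell. The median log2 difference was 0.16 over the 38 genes and 0.00 over all genes. Those that rose were CTSA, FUCA1, MCOLN1, NPC2, NEU1, LAMP1, TPP1, ATP6V0D1, PPT1, ARSA, LIPA, LAMP2 and HEXA, by 1.11-fold to 1.59-fold. NPC2, NEU1, FUCA1 and TPP1 did not overlap between the groups, where 1.12% of all genes were non-overlapping and higher.

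**Figure D2:**
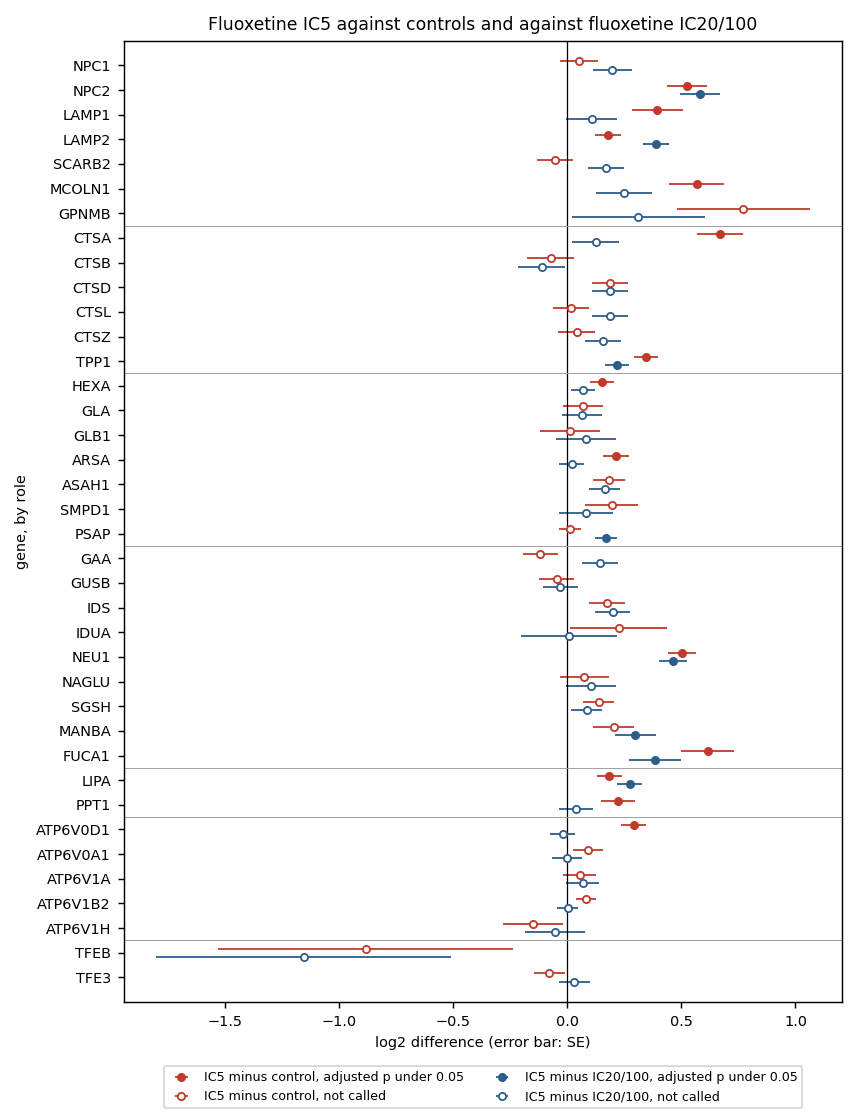
Log2 difference of each of 38 genes (x axis, error bar SE) at fluoxetine IC5 against controls (red) and against fluoxetine IC20/100 (blue), grouped by role. Filled points have an adjusted p under 0.05, 13 in red and 8 in blue, and all of them lie to the right of 0.

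Of the genes for membrane proteins and cholesterol export, 4 of 7 rose. NPC2 (chr14:74476192-74494177, GRCh38, minus strand) encodes the soluble protein that hands cholesterol to NPC1 for export from the lysosome. Its normalized read count was 638, 690 and 759 (lowest, median and highest of 8) in controls and 949, 1000 and 1050 at fluoxetine IC5. Every fluoxetine IC5 library lay above every control library, with means of 998 ± 37.5 and 697 ± 46.6 (SD, n = 8). The log2 difference was 0.52 ± 0.09 (SE, adjusted p = 6.18e-06). The sterol-binding partner NPC1 stood at 700, 909 and 1190 in controls and at 843, 962 and 1033 at fluoxetine IC5. These ranges overlapped and NPC1 did not pass the test (log2 difference 0.05 ± 0.08, adjusted p = 0.787). In controls without replicate 6 the NPC1 difference was -0.01.

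MCOLN1, which encodes the lysosomal calcium channel TRPML1, had 116, 144 and 238 in controls and 163, 237 and 272 at fluoxetine IC5. The ranges overlapped, and the fitted difference was 0.57 ± 0.12 on the log2 scale (adjusted p = 0.000382). MCOLN1 overlaps the gene PNPLA6 on the same strand, so reads of the shared stretch could be split between them. The same limit holds for HEXA, GLB1, IDS and CTSD, which also overlap another coding gene on their strand. LAMP1 and LAMP2 encode the heavily glycosylated proteins that line the lysosomal membrane. LAMP1 had 924, 1175 and 1665 in controls and 1286, 1568 and 1969 at fluoxetine IC5, with overlapping ranges (log2 difference 0.40 ± 0.11, adjusted p = 0.0105). LAMP2 (chrX:120427827-120469365, minus strand) had 1099, 1204 and 1270 in controls against 1214, 1388 and 1425, where a single fluoxetine IC5 library, replicate 3, reached into the control range. Its difference was 0.18 ± 0.06 (adjusted p = 0.0301), and it did not pass when control replicate 3 or 5 was left out or with no filter on low values. SCARB2, the receptor that carries glucocerebrosidase to the lysosome, differed by -0.05 ± 0.08 and did not pass. GPNMB, a transmembrane glycoprotein used as a marker of lysosomal stress, was measured at 0, 10.0 and 13.9 in controls and 6.19, 11.9 and 25.7 at fluoxetine IC5. Its difference of 0.77 ± 0.29 did not pass the test (adjusted p = 0.0739) but did with a pseudocount of 0.5 and without control replicate 3 or fluoxetine IC5 replicate 7, and counts this low carry a large counting error.

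Among the proteases 2 of 6 tested rose. CTSA (chr20:45890144-45898820, plus strand) encodes protective protein/cathepsin A, which holds neuraminidase and beta-galactosidase in a complex. It had 285, 337 and 500 in controls and 463, 567 and 751 at fluoxetine IC5, so that the highest control libraries overlapped the lowest exposed ones. The difference was 0.67 ± 0.10 (adjusted p = 6.24e-07), the largest fold among the 13, at 1.59-fold. TPP1, which encodes a tripeptidyl peptidase deficient in a form of neuronal ceroid lipofuscinosis, had 1009, 1131 and 1249 in controls and 1274, 1435 and 1665. All fluoxetine IC5 libraries lay above the controls (0.34 ± 0.05, adjusted p = 1.03e-06). Cathepsins B, D, L and Z (CTSB, CTSD, CTSL and CTSZ) gave differences from -0.07 to 0.19, and none passed.

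The glycan-degrading enzymes held the gene with the smallest adjusted p. NEU1 (chr6:31857659-31862906, minus strand) encodes the lysosomal sialidase. It had 303, 345 and 357 in controls and 425, 467 and 523 at fluoxetine IC5, with no overlap (log2 difference 0.50 ± 0.06, adjusted p = 3.07e-10). FUCA1, which encodes alpha-L-fucosidase, was low but separated, with 43.3, 53.9 and 62.7 in controls and 71.7, 79.3 and 93.8 at fluoxetine IC5 (0.61 ± 0.12, adjusted p = 4.50e-05). The other 7 of the 9 genes in this role did not pass. IDS differed by 0.17 ± 0.08 and passed without methyl mercury IC20/100 replicate 8 in the shared fit (0.17 ± 0.05, adjusted p = 0.0110) or with only the compared libraries. GAA, the glycogen-degrading acid alpha-glucosidase, differed by -0.12 ± 0.08.

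For lipid breakdown the changes were smaller. ARSA, the sulfatase that degrades sulfatide, was at 441, 518 and 573 in controls and 524, 595 and 675 at fluoxetine IC5 (0.21 ± 0.06, adjusted p = 0.00498). HEXA, encoding the alpha subunit of beta-hexosaminidase, differed by 0.15 ± 0.05 (adjusted p = 0.0399), and its call was lost without any one of control replicates 1, 4, 6 and 8 or fluoxetine IC5 replicates 2, 3, 5, 7 and 8, and also with no filter on low values, no run term or only the compared libraries in the fit. SMPD1 encodes acid sphingomyelinase, the enzyme best known for being lost from lysosomes under cationic amphiphilic drugs, and its transcript differed by 0.19 ± 0.12 (adjusted p = 0.327). ASAH1, acid ceramidase, differed by 0.18 ± 0.07 (adjusted p = 0.0722), and passed without control replicate 2 or 5 or fluoxetine IC5 replicate 2. PSAP differed by 0.01 ± 0.05. LIPA, the acid lipase of cholesteryl esters, rose by 0.18 ± 0.06 (adjusted p = 0.0182), with 670, 704 and 822 in controls and 728, 817 and 908 at fluoxetine IC5, and did not pass without control replicate 4. PPT1, a palmitoyl-protein thioesterase, rose by 0.22 ± 0.07 (adjusted p = 0.0391), and that call was lost without any one of control replicates 1, 3, 6 and 8 or fluoxetine IC5 replicates 1, 6 and 8 and with no filter on low values. LIPA and ARSA did not pass with only the compared libraries in the fit.

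Of 5 proton pump subunits only ATP6V0D1 passed the test against controls. It had 797, 854 and 1019 in controls and 969, 1042 and 1182 at fluoxetine IC5, with overlapping ranges (0.29 ± 0.06, adjusted p = 6.86e-05). ATP6V0A1, ATP6V1A, ATP6V1B2 and ATP6V1H gave differences between -0.15 and 0.09.

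The genes for the factors themselves did not pass the test over all day 10 groups. TFE3 had 595, 663 and 736 in controls and 514, 612 and 704 at fluoxetine IC5 (-0.08 ± 0.07, adjusted p = 0.556). TFEB was low and erratic. It lay between 10.3 and 95.7 in 83 of the 96 libraries and between 133 and 611 in the other 13, which were spread over 9 groups and all 6 sequencing runs; the limit of 100 was chosen after the values were seen. The median is therefore the better summary. It was 40.3 in controls (28.5 to 133), 23.5 at fluoxetine IC5 (17.9 to 30.1) and 25.7 at fluoxetine IC20/100 (15.3 to 611). The fitted log2 difference at fluoxetine IC5 was -0.88 ± 0.65 (adjusted p = 0.456). With only the fluoxetine IC5 and control libraries in the fit it was -0.97 ± 0.28 and TFEB passed as lower (adjusted p = 0.0488), the single lower call of that alternative beside 11 higher. The highest TFEB median, 69.7, was that of valproic acid IC5, and the lowest, 18.6, that of acrylamide IC5. Both factors are controlled largely by their place in the cell, which RNA does not measure.

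**Figure D3:**
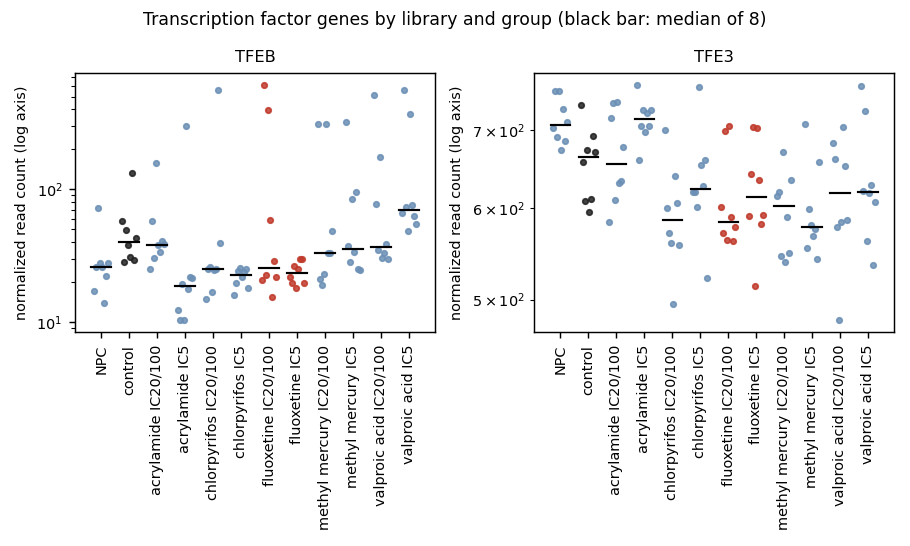
Normalized read counts (log axis) of TFEB and TFE3 in each library of the 12 groups, with the median of 8 as a black bar and fluoxetine in red. Single TFEB libraries reach up to 611 in 9 groups while most stay under 100, whereas TFE3 varies little.

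At fluoxetine IC20/100 the counts against controls were near the background. Of the 38 genes 3 rose and 4 fell, where 6.88% of all genes rose and 7.54% fell. CTSA (0.55 ± 0.10, adjusted p = 3.82e-05), ATP6V0D1 (0.31 ± 0.06) and ARSA (0.19 ± 0.06) rose. GAA fell by 0.26 ± 0.08 (adjusted p = 0.0129), and SCARB2, LAMP2 and PSAP fell by 0.22, 0.21 and 0.16. The SCARB2 call was lost in 11 of 17 fits that each left out a library, among them any of controls 1, 2, 4, 5 and 8 and IC20/100 replicates 3 to 8, and the PSAP call without IC20/100 replicate 1 or with no run term. SCARB2 also did not pass with no filter or with only the compared libraries.

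The direct comparison of the fluoxetine concentrations uses no controls and holds the vehicle constant. At IC5, 8 of the 38 genes were higher than at IC20/100 and 0 lower, where 2.30% of all genes were higher and 1.46% lower. The count was 5 without fluoxetine IC20/100 replicate 6, 5 without its replicate 8, and 5 with no filter on low values. By edgeR and DESeq2, 8 were higher and 1, TFEB, was lower (adjusted p = 0.0491 and 0.00727); its highest library, at 611, is in the IC20/100 group. NPC2 had 617, 664 and 736 at IC20/100, all below the IC5 libraries (log2 difference 0.58 ± 0.09, adjusted p = 1.54e-06). NEU1 had 292, 349 and 391 at IC20/100, again with no overlap (0.46 ± 0.06, adjusted p = 1.46e-08). LAMP2 had 921, 1020 and 1142 at IC20/100 and was likewise separate (0.39 ± 0.06, adjusted p = 7.56e-07). FUCA1, with 57.5, 63.6 and 69.6 at IC20/100, was the fourth non-overlapping gene (0.38 ± 0.12, adjusted p = 0.0385), where 0.795% of all genes were separate and higher, but its call was lost without any one of IC20/100 replicates 1, 4, 5, 6 and 8 or IC5 replicates 3, 6 and 8. MANBA, LIPA, TPP1 and PSAP were higher by 0.30, 0.27, 0.22 and 0.17. The MANBA call was lost without any one of IC20/100 replicates 2, 4, 5, 6, 7 and 8 or IC5 replicates 2, 3, 4 and 7, and the PSAP call without IC20/100 replicates 1, 6 or 8 or IC5 replicates 2, 7 or 8. Both were also lost with no filter, no run term or only the compared libraries, FUCA1 with no filter and TPP1 with only the compared libraries. CTSA, ATP6V0D1 and ARSA, which rose against controls at both concentrations, differed between them by 0.12 ± 0.10, -0.02 ± 0.06 and 0.02 ± 0.06, and none of these passed.

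**Figure D4:**
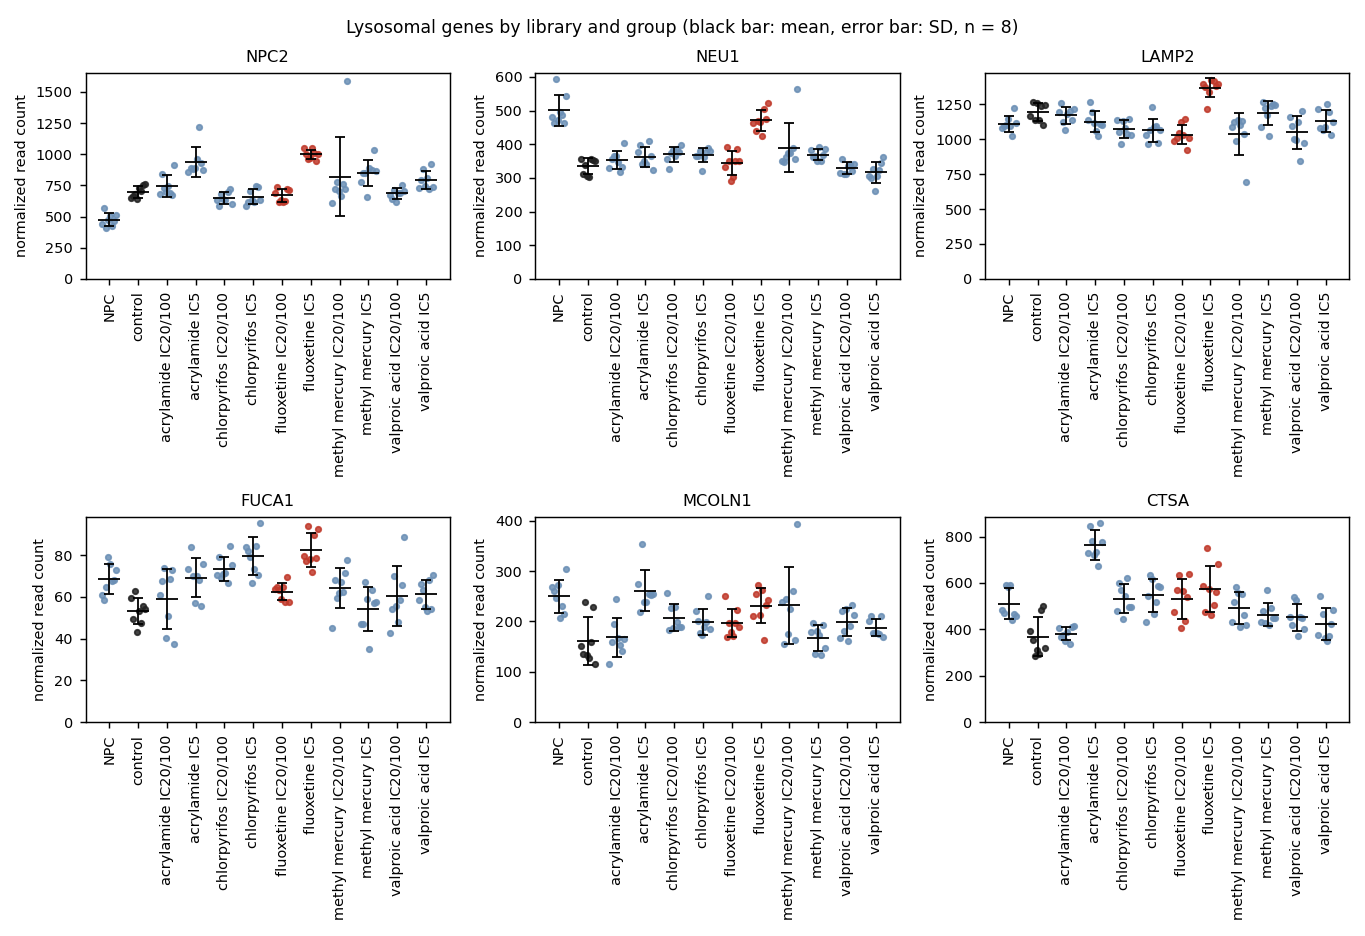
Normalized read counts of 6 lysosomal genes in each of 96 libraries (y axis, from 0) for the 12 groups (x axis), with mean and SD as black bars, fluoxetine in red and controls in black. NPC2, NEU1 and LAMP2 stand high at fluoxetine IC5 and not at IC20/100, while CTSA is also high in several other exposed groups and NPC2 at acrylamide IC5.

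The other compounds dissolved in DMSO give a comparison with the vehicle matched. Fluoxetine IC5 exceeded chlorpyrifos IC5, an organophosphate insecticide, in 9 genes and fell below it in 0, where 3.20% of all genes were higher and 3.63% lower. NPC2 (0.61 ± 0.09, adjusted p = 3.65e-07), NEU1 (0.37 ± 0.06, adjusted p = 5.01e-06) and LAMP2 (0.35 ± 0.06, adjusted p = 7.92e-06) showed the largest differences. NPC2 had 588, 633 and 743 at chlorpyrifos IC5 and NEU1 had 321, 372 and 388, neither overlapping fluoxetine IC5 (0.968% of all genes were separate and higher). Against methyl mercury IC5, 8 genes were higher and 0 lower, where 4.30% of all genes were higher and 3.99% lower. FUCA1 (0.61 ± 0.12, adjusted p = 5.72e-05), MCOLN1 (0.47 ± 0.12, adjusted p = 0.00469) and LAMP1 (0.37 ± 0.11, adjusted p = 0.0225) led, though LAMP1 did not pass without fluoxetine IC5 replicate 2 or 4 or methyl mercury IC5 replicate 1 or 5, nor with no run term. NPC2 there differed by 0.24 ± 0.09 and did not pass (adjusted p = 0.0893), with 656, 857 and 1034 at methyl mercury IC5. Without methyl mercury IC20/100 replicate 8 in the shared fit NPC2 passed there (0.24 ± 0.06, adjusted p = 0.00459), and with only the compared libraries as well (0.27 ± 0.07, adjusted p = 0.0401).

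The signed difference, IC5 minus IC20/100, was itself compared between compounds. It was larger for fluoxetine than for chlorpyrifos in 3 genes, where 1.16% of all genes passed in that direction. They were NPC2 (0.57 ± 0.13, adjusted p = 0.00338), NEU1 (0.49 ± 0.08, adjusted p = 5.82e-05) and LAMP2 (0.38 ± 0.08, adjusted p = 0.00298). Leaving methyl mercury IC20/100 replicate 8 out of the shared fit, raised this count to 6. It was larger for fluoxetine than for methyl mercury in 7 genes against 2.47% of all genes, in 8 without that library, and in 2 when only the libraries of the groups compared entered the fit. MCOLN1 (0.68 ± 0.17), FUCA1 (0.63 ± 0.16) and NEU1 (0.52 ± 0.08) had the largest values, with adjusted p of 0.00783, 0.0103 and 1.01e-05, and MCOLN1 and FUCA1 did not pass with only the compared libraries. Without methyl mercury IC20/100 replicate 8 these values were 0.58, 0.59 and 0.45, and all passed. A lower level at methyl mercury IC5 than at IC20/100 adds to such a value. With all libraries, MCOLN1 had means of 42.3 and 58.7 per kb there, and 58.6 and 49.8 at fluoxetine IC5 and IC20/100. In the same order FUCA1 had 26.4 and 31.3, and 40.4 and 30.5. NEU1 had 76.6 and 80.8, and 97.6 and 71.4. Its order at methyl mercury rests on IC20/100 replicate 8, with a normalized read count of 565 against 347 to 388 in the others. In neither comparison did one of the 38 genes pass in the other direction, where 0.720% and 1.76% of all genes did.

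CTSA, ATP6V0D1 and ARSA each rose in 7 of the 10 exposed groups, all of which share the same controls. The called rises spanned 0.38 to 1.10 for CTSA, 0.21 to 0.36 for ATP6V0D1 and 0.16 to 0.39 for ARSA on the log2 scale. The ARSA call at chlorpyrifos IC20/100 held in 9 of 17 fits that each left out a library. It was lost with no filter or with only the compared libraries. The mean of CTSA was 368 ± 84.5 (SD, n = 8) in controls, the lowest of the day 10 groups, and 765 ± 63.9 at acrylamide IC5, the highest. At acrylamide IC5 its libraries had 674, 755 and 858, all above the controls, as were 7.63% of all genes (log2 difference 1.10 ± 0.10, adjusted p = 3.74e-15). The differences were 0.59 and 0.58 at chlorpyrifos IC5 and IC20/100, and 0.38 and 0.45 at methyl mercury IC5 and IC20/100. At acrylamide IC20/100 the CTSA difference was 0.09 ± 0.10, and at valproic acid IC5 0.21 ± 0.10, and neither passed.

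GAA and LAMP2 went the other way in several groups. GAA had 1305, 1464 and 1652 in controls. It had 863, 1079 and 1226 at acrylamide IC5, 893, 1116 and 1262 at chlorpyrifos IC5 and 972, 1102 and 1223 at valproic acid IC5, none of which overlapped the controls, where 7.51%, 2.36% and 3.05% of all genes were separate and lower. The log2 differences were -0.48, -0.42 and -0.42, with adjusted p of 3.66e-07, 2.48e-05 and 9.62e-06. LAMP2 fell by 0.17 to 0.23 at chlorpyrifos IC5 and IC20/100, fluoxetine IC20/100, methyl mercury IC20/100 and valproic acid IC20/100. The LAMP2 call was lost without chlorpyrifos IC20/100 replicate 3 in that group, and without chlorpyrifos IC5 replicate 2 or control replicate 1, 2 or 8 at chlorpyrifos IC5. At chlorpyrifos IC20/100 it was also lost with no run term. Its only called rise among the exposed groups was at fluoxetine IC5.

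Acrylamide IC5 changed the most genes, 12 higher and 8 lower, where 42.0% of all genes were called. CTSA, MCOLN1 (0.73 ± 0.12, adjusted p = 5.17e-07) and IDUA (0.65 ± 0.21, adjusted p = 0.00979), which encodes alpha-L-iduronidase, rose most. NPC2 also rose there, by 0.43 ± 0.09 (adjusted p = 3.69e-05), with 854 to 1218 in its 8 libraries, all above the controls. GLB1, encoding beta-galactosidase, fell by 0.43 ± 0.13 (adjusted p = 0.00531). At acrylamide IC20/100 0 genes passed by limma, edgeR or DESeq2, 2 had an unadjusted p under 0.05, and 0.0596% of all genes were called.

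Chlorpyrifos gave 5 higher and 4 lower genes at both concentrations, where 19.7% of all genes were called at IC5 and 14.1% at IC20/100. FUCA1 rose by 0.56 ± 0.11 at IC5 (adjusted p = 0.000112) and 0.45 ± 0.11 at IC20/100 (adjusted p = 0.00322), in both cases without overlap with controls, where 1.94% and 1.38% of all genes were separate and higher. PSAP fell by 0.21 and 0.17. MCOLN1 was also called higher at both concentrations. At IC20/100 it did not pass with only the compared libraries. At IC5 it passed in 9 of 17 fits that each left out a library. There it did not pass by edgeR or DESeq2, with no filter, with no run term or with only the compared libraries.

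Methyl mercury gave 2 higher and 1 lower gene at IC5 (10.9% of all genes) and 6 higher and 2 lower at IC20/100 (15.8%). At IC5 CTSA and NPC2 rose (NPC2 by 0.29 ± 0.09, adjusted p = 0.0222) and GAA fell by 0.25 ± 0.08. NPC2 did not pass without methyl mercury IC5 replicate 7, nor GAA without control replicate 1 or 8 or methyl mercury IC5 replicate 4 or 5, with no filter or with no run term. At IC20/100 MCOLN1 (0.53 ± 0.12, adjusted p = 0.000982), CTSA (0.45 ± 0.10) and PPT1 (0.25 ± 0.07) rose most. Without replicate 8 of that group the counts were again 6 higher and 2 lower, with MCOLN1 at 0.42, CTSA at 0.48, PPT1 at 0.21 and LAMP2 at -0.15. With only the methyl mercury IC20/100 and control libraries in the fit, replicate 8 included, 0 genes passed.

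Valproic acid IC5 gave 4 higher and 5 lower genes, where 26.9% of all genes were called. CTSB, encoding cathepsin B, rose by 0.38 ± 0.10 (adjusted p = 0.00295). CTSZ, encoding cathepsin Z, had 161, 178 and 200 against 212, 235 and 251 in controls, without overlap, and fell by 0.39 ± 0.08 (adjusted p = 6.95e-05). At valproic acid IC20/100 only LAMP2 passed, where 2.54% of all genes did, and the count was 0 or 2 when any one of control replicates 2, 3, 6 and 7 or valproic acid IC20/100 replicates 4, 5, 6 and 8 was left out. The count was 0 with no run term or only the compared libraries, and 2 by DESeq2 or with the replicate block.

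**Figure D5:**
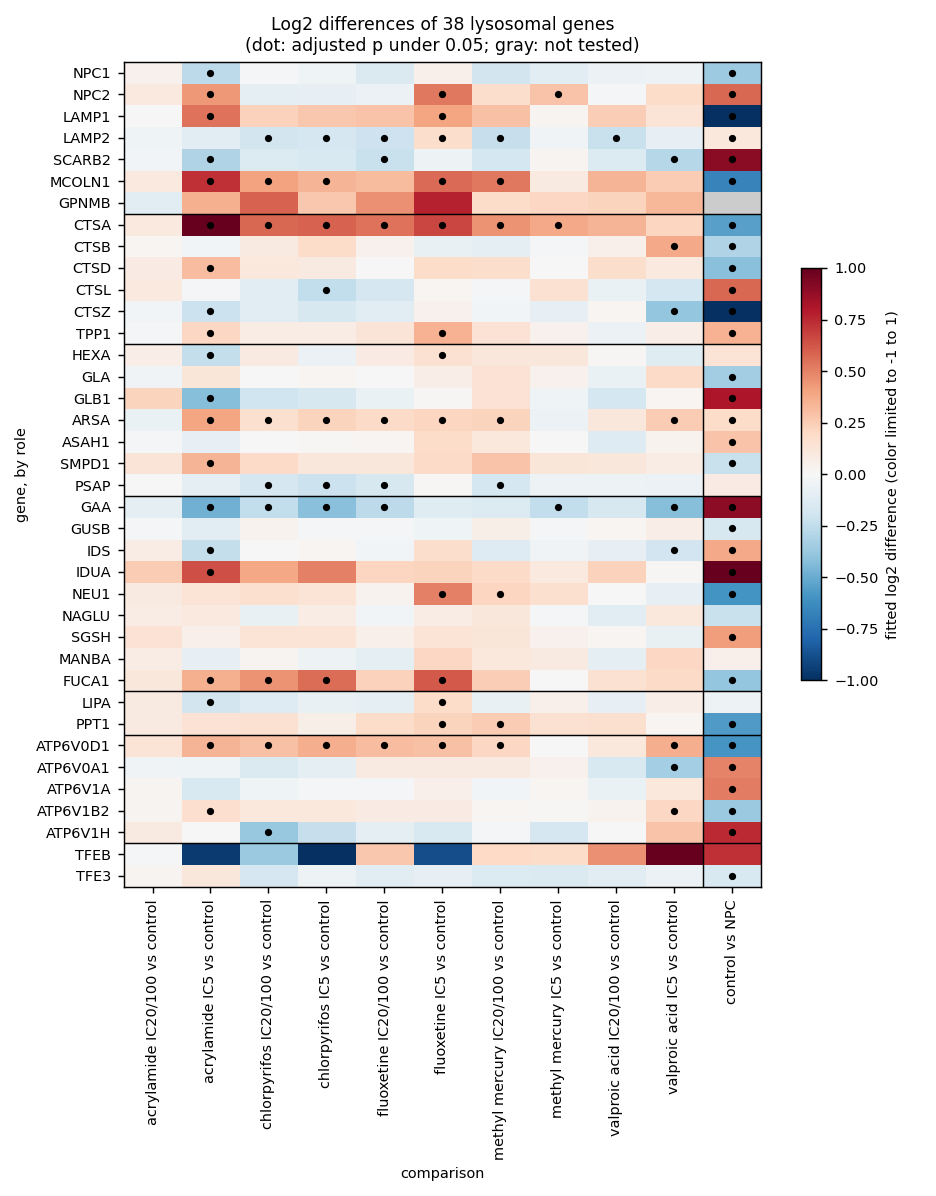
Fitted log2 differences (color, limited to -1 to 1) of 38 lysosomal genes by role (rows) in the 10 exposed groups against the shared controls and in controls against NPC (columns), with a dot where the adjusted p is under 0.05. At fluoxetine IC5 all 13 dots are on rises, while in the other exposed groups with more than 1 dot rises and falls are mixed.

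From NPC to day 10 controls 15 of 37 tested genes rose and 16 fell, where 33.9% of all genes rose and 36.8% fell. With TMM scaling or by edgeR the split was 18 and 13. IDUA had 63.1, 74.4 and 107 in NPC and 150, 210 and 260 in controls, without overlap, as for 18.6% of all genes (1.46 ± 0.14, adjusted p = 1.14e-06). SCARB2 rose by 0.90 ± 0.08 (adjusted p = 6.11e-07) and GAA by 0.90 ± 0.06 (adjusted p = 9.21e-08). CTSZ had 528, 564 and 653 in NPC and fell by 1.26 ± 0.06 (adjusted p = 2.56e-09). LAMP1 fell by 1.10 ± 0.14 (adjusted p = 2.49e-05), from 1944, 2597 and 2799 in NPC. MCOLN1, NEU1 and ATP6V0D1 fell by 0.66, 0.60 and 0.59. The proton pump subunits split, with ATP6V1H, ATP6V1A and ATP6V0A1 higher by 0.75, 0.51 and 0.49 and ATP6V0D1 and ATP6V1B2 lower by 0.59 and 0.37. NPC2 rose by 0.58 ± 0.06 while NPC1 fell by 0.36 ± 0.09. In bulk RNA, fewer cells of a type and less RNA per cell cannot be told apart, and the cell mixture changes over this interval.

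In mean level, fluoxetine IC5 was the highest of the 11 day 10 groups in 11 of the 38 genes and the lowest in 0. Of those 11 genes, GPNMB, CTSZ, IDS and ASAH1 did not pass the test against controls. Acrylamide IC5 was highest in 8 and lowest in 9, and valproic acid IC5 highest in 8 and lowest in 4. Controls were highest in 2 and lowest in 6. These means are not adjusted for sequencing run. Such ranks were not counted over all genes, so they describe the 38 genes only.

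Other lysosomal and autophagy genes, from lists of 96 symbols of which 94 were tested, moved with the set at fluoxetine IC5. Against controls 27 rose and 0 fell, beside the 5.47% and 5.94% of all genes given above. Among 26 further hydrolases 10 rose, with CTSK (cathepsin K) higher by 0.59. Of 17 membrane and transport genes 5 rose. GRN, which encodes progranulin, the precursor of lysosomal granulins, had 617, 806 and 902 in controls and 906, 1130 and 1382 at fluoxetine IC5 (0.59 ± 0.09, adjusted p = 1.56e-07). CLN3, a lysosomal membrane protein deficient in juvenile neuronal ceroid lipofuscinosis, rose by 0.69 ± 0.15 (adjusted p = 0.000377).

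Of 15 tested genes for the control of TFEB and mTORC1 4 rose. RRAGC encodes a Rag GTPase that recruits mTORC1 to the lysosome. It had 289, 378 and 442 in controls and 445, 509 and 682 at fluoxetine IC5, without overlap (0.50 ± 0.08, adjusted p = 6.92e-07). FNIP1, a folliculin partner, and LAMTOR1, a Ragulator subunit, rose by 0.29 and 0.25. Of 14 autophagy genes 3 rose, led by VPS18 of the HOPS tethering complex (0.33 ± 0.05, adjusted p = 2.03e-07). Of 13 tested further proton pump genes 3 rose and of 9 enzyme-sorting genes 2. Between the fluoxetine concentrations 12 of the 94 were higher at IC5 and 0 lower (2.30% and 1.46% of all genes). Among the 12 was IGF2R, the cation-independent mannose-6-phosphate receptor (0.30 ± 0.05, adjusted p = 8.76e-06, named after its value was seen). At fluoxetine IC20/100 16 of the 94 rose and 6 fell against controls (6.88% and 7.54% of all genes). In controls against NPC 19 rose and 42 fell (33.9% and 36.8% of all genes).

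Markers of other cell types moved at the same concentration. The sum of 6 mesenchymal markers was 1404 to 2387 at fluoxetine IC5, 1309 to 1721 in controls and 1110 to 1652 at fluoxetine IC20/100, with 2 of 6 higher and 1 lower than in controls and 4 of 6 higher than at IC20/100. Of the oligodendrocyte markers only SOX10 (-0.62 ± 0.28, adjusted p = 0.163) and MBP (-0.20 ± 0.36, adjusted p = 0.813) are given, neither of which passed; the rest of that list is not reported here, so these values do not describe it. Of 6 progenitor markers 3 were lower than in controls, as were 2 of 8 neuronal and 1 of 6 astrocyte markers. Only falls are counted for these lists. Of all genes 5.47% were higher and 5.94% lower than in controls, and 2.30% were higher than at IC20/100. The progenitor sum was 92421 to 100962 at fluoxetine IC5 and 92861 to 99567 in controls. In the same order the neuronal sums were 81205 to 88418 and 84194 to 91083, and the astrocyte sums 1424 to 2105 and 1910 to 2586. The part of these shifts in the lysosomal results was not tested. Microglia and macrophages, which are rich in lysosomes, were nearly without signal: their 10 markers summed to 3.33 to 26.4 at fluoxetine IC5 and 8.96 to 36.5 in controls, 10 and 9 of the 10 had a mean under 10, and 4 and 3 were at 0 in all 8 libraries. Within the 6 sequencing runs, NPC2, NEU1, FUCA1, MCOLN1, CTSA, LAMP1, LAMP2 and TPP1 were higher at fluoxetine IC5 than in controls in 6 of 6, as were PPT1, ATP6V0D1 and ARSA. HEXA and LIPA were higher in 5 of 6.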

How the data were processed

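The authors made and deposited 1 table of gene counts divided by a size factor per library, a normalized signal. Per the submitters' processing notes, bcl2fastq, FastQC 0.11.8, MultiQC 1.0, Salmon 1.3.0 and DESeq2 1.30.0 were used with GRCh38, with no annotation release named. All values were whole multiples of 1 read's worth (100% within 0.001 read in every library), so reads were recovered for edgeR 4.0.16, DESeq2 1.42.0 and TMM alternatives; in 6 libraries the factor lay within 1.2% of 1.

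Log2 of the deposited value plus 2 was tested with limma 3.58.1 (R 4.3.3, trended prior), with group and sequencing run as terms, on genes reaching 10 in 8 or more of the fitted libraries. The day 10 fit held 88 libraries and 20136 genes (72 residual degrees of freedom), the NPC fit 16 and 18063 (9). Differences are on this log2(value + 2) scale, which understates low genes. Calls needed an adjusted p under 0.05 (Benjamini-Hochberg, all tested genes). The fit was tested on simulated data. The 336 pairs of libraries within groups all differed by more than counting noise (chi-square over degrees of freedom 16.6 or more). Positions and exon lengths come from GENCODE 29 by identifier. Promoters come from RefSeq.

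The members, the other lists and the tests were chosen with earlier results of these data known. Named genes are, per role, the 3 with the smallest adjusted p at fluoxetine IC5 against controls, the 3 largest called in every other comparison, and TFEB, TFE3, NPC1 and GPNMB; others are named to complete counts. Alternatives were other pseudocounts, no filter, other scaling and tools, no run term, a replicate block, only the libraries compared, and each library left out. Results for some genes of the other lists are not reported here.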

Additional observations from a re-analysis of the deposited data

Results flagged for a closer look

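Single libraries lay apart from the other 7 of their group in 40 of 312 sets of 8 libraries, where chance gives about 1 in 20. The gap to the nearest library, as a share of the group's range, was above Dixon's 95% limit in each. Methyl mercury IC20/100 replicate 8 accounted for 9 of them. It was highest for CTSZ (382 against 205 to 248 in the others), GAA (1783 against 1161 to 1436 in the others), HEXA (1967 against 1258 to 1571 in the others), MCOLN1 (394 against 156 to 262 in the others), NEU1 (565 against 347 to 388 in the others), NPC2 (1591 against 612 to 775 in the others), PPT1 (2004 against 1390 to 1673 in the others). It was lowest for IDS (1377 against 2855 to 3459) and LAMP2 (694 against 990 to 1136). These values are normalized read counts, as are those that follow.

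TFEB had such a library in 7 groups: 133 in control replicate 6 (others 28.5 to 57.5), 72.2 in NPC replicate 3 (others 13.8 to 28), 157 in acrylamide IC20/100 replicate 4 (others 25.2 to 58.1), 302 in acrylamide IC5 replicate 5 (others 10.3 to 21.8), 565 in chlorpyrifos IC20/100 replicate 7 (others 14.9 to 39.3), 324 in methyl mercury IC5 replicate 1 (others 24.8 to 95.7), 510 in valproic acid IC20/100 replicate 1 (others 30.1 to 177).

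The remaining ones were spread over genes and groups. ARSA was 750 in acrylamide IC5 replicate 1, the highest (629 to 681 in the others) and 713 in valproic acid IC5 replicate 2, the highest (556 to 625 in the others). ATP6V0A1 was 4120 in methyl mercury IC20/100 replicate 6, the highest (2296 to 3059 in the others). ATP6V0D1 was 1019 in control replicate 7, the highest (797 to 893 in the others) and 1455 in NPC replicate 3, the highest (1223 to 1331 in the others). ATP6V1B2 was 2176 in acrylamide IC20/100 replicate 4, the highest (1872 to 1971 in the others). CTSB was 2768 in control replicate 8, the highest (1483 to 2000 in the others). CTSD was 1740 in fluoxetine IC5 replicate 7, the highest (1296 to 1500 in the others). GPNMB was 41.5 in NPC replicate 4, the highest (1.04 to 10.8 in the others) and 32 in chlorpyrifos IC20/100 replicate 8, the highest (3.51 to 13.8 in the others) and 15.3 in chlorpyrifos IC5 replicate 6, the highest (5.72 to 9.99 in the others). HEXA was 1331 in acrylamide IC5 replicate 6, the highest (1039 to 1176 in the others). IDS was 2651 in NPC replicate 1, the highest (2282 to 2441 in the others). IDUA was 107 in NPC replicate 1, the highest (63.1 to 82.9 in the others) and 379 in acrylamide IC20/100 replicate 8, the highest (213 to 276 in the others) and 445 in methyl mercury IC20/100 replicate 3, the highest (168 to 255 in the others) and 464 in methyl mercury IC5 replicate 4, the highest (138 to 224 in the others) and 354 in valproic acid IC5 replicate 5, the highest (150 to 223 in the others). LAMP1 was 1944 in NPC replicate 4, the lowest (2543 to 2799 in the others). LAMP2 was 1214 in fluoxetine IC5 replicate 3, the lowest (1340 to 1425 in the others). LIPA was 906 in valproic acid IC5 replicate 2, the highest (676 to 781 in the others). MCOLN1 was 353 in acrylamide IC5 replicate 3, the highest (219 to 275 in the others). NEU1 was 321 in chlorpyrifos IC5 replicate 4, the lowest (361 to 388 in the others). NPC2 was 1218 in acrylamide IC5 replicate 6, the highest (854 to 959 in the others).

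The signed difference, IC5 minus IC20/100, was larger for fluoxetine than for another compound in DMSO, by the limma test of that difference, in 10 cases. Against chlorpyrifos the log2 excess was 0.49 for NEU1, 0.38 for LAMP2, 0.57 for NPC2. Against methyl mercury it was 0.63 for FUCA1, 0.52 for NEU1, 0.68 for MCOLN1, 0.47 for NPC2, 0.36 for CTSD, 0.32 for TPP1, 0.30 for ARSA. In mean level over all libraries, all of these but NPC2 were lower at methyl mercury IC5 than at IC20/100, which adds to the excess. For NEU1 that order rests on methyl mercury IC20/100 replicate 8 alone. For ARSA the excess lay mainly in the methyl mercury difference, with means per kb of 168 and 202 at IC5 and IC20/100. At fluoxetine IC5 and IC20/100 the ARSA means were 201 and 199. Methyl mercury IC20/100 includes the library that stands apart, and without it the excess was 0.59 for FUCA1, 0.45 for NEU1, 0.58 for MCOLN1, 0.34 for NPC2, 0.33 for CTSD, 0.33 for TPP1 and 0.26 for ARSA. CTSD did not pass without that library, nor in 18 other fits that each left out a library, nor with no filter, no run term, the replicate block or only the compared libraries. With only the compared libraries FUCA1, MCOLN1, NPC2 and ARSA did not pass either, and NPC2 did not without methyl mercury IC5 replicate 4.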

How the results depend on the processing

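Counts of called genes were recomputed under each alternative. Fluoxetine IC5 against controls gave 13 genes and 11 to 14 when single libraries were left out. Fluoxetine IC5 against IC20/100 gave 8, with 5 to 8 when single libraries were left out (5 without IC20/100 replicate 6 or 8) and 5 with no filter on low values, where more genes are tested. The difference from the methyl mercury concentration effect gave 7 genes, and 2 with only the libraries compared. The difference from the chlorpyrifos effect gave 3, with 3 to 4 on leaving out its own libraries and 6 without methyl mercury IC20/100 replicate 8. Methyl mercury IC20/100 against controls gave 8, and 0 with only its own libraries and controls. Valproic acid IC20/100 gave 1, with 2 by DESeq2, 0 with no run term, 0 with only the libraries compared and 0 to 2 on leaving out single libraries. For these the cause was not tested. Left-out libraries gave 0 genes at acrylamide IC20/100, 19 to 22 at acrylamide IC5, 6 to 10 and 7 to 11 at chlorpyrifos IC20/100 and IC5, 6 to 9 at fluoxetine IC20/100, 8 to 10 and 7 to 9 for fluoxetine IC5 against chlorpyrifos IC5 and methyl mercury IC5, 5 to 8 for the difference from methyl mercury, 8 to 10 and 2 to 4 at methyl mercury IC20/100 and IC5, 8 to 11 at valproic acid IC5 and 27 to 32 for controls against NPC.

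Of 154 results for single genes, edgeR kept the side of the threshold of 150 and DESeq2 and TMM scaling of 151 each. No filter and no run term each kept 139. With only the libraries compared, 94 of the 123 results it could give kept their side, 27 lost a call and 2 gained one. The only change of sign was NPC1 at fluoxetine IC5, from 0.05 to -0.0080 without control replicate 6, within -0.0080 to 0.093 over the libraries left out, and it passed in neither fit. With the replicate number as a block, fluoxetine IC5 gave 13 genes against controls and 8 against IC20/100, valproic acid IC20/100 gave 2, and 150 of 154 results kept their side. Same-numbered libraries of fluoxetine IC5 and controls hardly deviated together (with run removed, median correlation 0.12, against 0.07 for other numbers, lowest 0.03). Numbers were not taken as pairs. All 8 numbers shared a run with controls at chlorpyrifos IC5, fluoxetine IC20/100 and valproic acid IC5. With run kept, the medians there were 0.0599, 0.0555 and 0.056, against -0.00426, -0.00289 and -0.0043 for other numbers. In these groups 5, 6 and 3 libraries correlated best with their own number. Number and run cannot be told apart there. Depth limits genes near 10 reads, such as GPNMB. The reason for the high TFEB values in single libraries was not tested.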
